A study of Homo sapiens with 9 samples.

Results

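The genes described here encode kinesins, centromere proteins and proteins of the mitotic spindle. They were taken by name: every gene of the form KIF followed by a number and at most 1 letter from A to C, every gene of the form CENP followed by 1 letter, and a set of 16 spindle, checkpoint and proliferation genes led by MKI67. Of the 57773 features in the table, 74 met the rule, and 68 of these were among the 12985 features that passed the filter on low values. The 6 that did not pass were KIF19, KIF2B and KIF4B, listed at 0 in all libraries, and KIF1A, KIF25 and KIF6, which had at most 3.56 in any library. For counting, the genes were put into lists. These were 16 spindle, checkpoint and proliferation genes (all tested) and 14 mitotic kinesins with CENPE counted among them (13 tested). The others were 18 further CENP genes, here called centromere proteins (all tested), and 26 transport, ciliary and other kinesins (21 tested). The last list, called transport kinesins below, takes in every KIF gene not put among the mitotic ones. The lists are rough for single genes, such as KIF2A, KIF24 and CENPJ.

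All 9 libraries came from ACHN, an established human renal cell carcinoma line. In the KO#1 and KO#2 groups Cas9 and a guide RNA against ELOVL5, a fatty acid elongase, were used, with a different guide of 2 in each, and in the sgControl group the cells carried a control guide. Each group had 3 libraries. No drug treatment or time point is given in the labels, nor whether knockout cells were clones or pools, nor whether the libraries of a group were separate cultures, so that a p-value measures only the spread between these libraries, which may be technical. Libraries are numbered here by their place in the sample order, and a shared number pairs nothing.

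Kinesins are motor proteins that use ATP to move along microtubules or to shorten them. One set of them builds the mitotic spindle, moves chromosomes and divides the cell, and another carries vesicles, organelles and ciliary cargo in cells of any stage. Centromere proteins mark the site on each chromosome where the kinetochore forms, and spindle and checkpoint proteins join microtubules to it and delay anaphase until all chromosomes are attached. Transcripts of most mitotic genes accumulate in G2 and M phase, and their levels are used as a measure of how much of a culture is dividing. In bulk RNA such as this, a change in the share of dividing cells and a change in the transcript per cell cannot be told apart.

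Promoters of 6 of the genes are shown because the pattern described next separates the mitotic genes from the transport kinesins. They are 300-base windows, 250 bases before and 50 after the start of the gene, from RefSeq annotation of GRCh38.p14, read 5′ to 3′ on the strand of the gene, and 62 of the 74 genes had such a window. MKI67 lies at chr10:128126374-128126673 on the minus strand, CDC20 at chr1:43358731-43359030 on the plus strand, CENPA at chr2:26785806-26786105 on the plus strand, KIF23 at chr15:69414099-69414398 on the plus strand, KIF20A at chr5:138178862-138179161 on the plus strand and KIF7 at chr15:89655418-89655717 on the minus strand. Capitals mark each TTTGAA (or TTCAAA, its reverse complement), the usual form of an element known from promoters of G2 and M phase genes, and each CCAAT (or ATTGG), the box bound by NF-Y. In MKI67 the second TTTGAA shares its last base with an ATTGG.
MKI67: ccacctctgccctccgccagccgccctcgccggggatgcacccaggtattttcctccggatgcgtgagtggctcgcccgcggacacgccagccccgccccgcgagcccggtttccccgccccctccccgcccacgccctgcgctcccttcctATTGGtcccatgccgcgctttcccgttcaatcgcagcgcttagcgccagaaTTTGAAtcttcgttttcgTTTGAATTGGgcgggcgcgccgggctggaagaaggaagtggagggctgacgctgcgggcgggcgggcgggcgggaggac
CDC20: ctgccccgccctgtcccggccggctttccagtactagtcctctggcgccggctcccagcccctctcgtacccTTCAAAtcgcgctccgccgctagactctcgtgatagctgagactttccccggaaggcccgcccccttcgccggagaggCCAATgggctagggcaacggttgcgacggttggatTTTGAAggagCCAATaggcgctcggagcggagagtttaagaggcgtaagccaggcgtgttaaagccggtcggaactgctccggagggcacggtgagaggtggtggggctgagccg
CENPA: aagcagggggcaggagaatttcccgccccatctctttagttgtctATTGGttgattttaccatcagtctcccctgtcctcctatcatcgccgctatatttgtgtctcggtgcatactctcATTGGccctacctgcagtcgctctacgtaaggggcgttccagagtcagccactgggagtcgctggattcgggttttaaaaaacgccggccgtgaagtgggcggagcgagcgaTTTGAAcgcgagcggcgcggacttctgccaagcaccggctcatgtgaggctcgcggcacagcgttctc
KIF23: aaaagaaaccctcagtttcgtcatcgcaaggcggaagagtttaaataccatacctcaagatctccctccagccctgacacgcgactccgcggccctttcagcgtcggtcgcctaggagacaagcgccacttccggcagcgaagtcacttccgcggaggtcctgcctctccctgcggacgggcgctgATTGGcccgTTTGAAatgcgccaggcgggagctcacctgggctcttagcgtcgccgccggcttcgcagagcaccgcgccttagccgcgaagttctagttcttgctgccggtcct
KIF20A: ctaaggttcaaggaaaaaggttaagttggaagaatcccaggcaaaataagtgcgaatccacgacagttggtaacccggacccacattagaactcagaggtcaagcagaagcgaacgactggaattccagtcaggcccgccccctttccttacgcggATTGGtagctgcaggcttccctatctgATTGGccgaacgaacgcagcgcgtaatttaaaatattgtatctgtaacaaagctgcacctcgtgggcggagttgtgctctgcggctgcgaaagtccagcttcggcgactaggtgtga
KIF7: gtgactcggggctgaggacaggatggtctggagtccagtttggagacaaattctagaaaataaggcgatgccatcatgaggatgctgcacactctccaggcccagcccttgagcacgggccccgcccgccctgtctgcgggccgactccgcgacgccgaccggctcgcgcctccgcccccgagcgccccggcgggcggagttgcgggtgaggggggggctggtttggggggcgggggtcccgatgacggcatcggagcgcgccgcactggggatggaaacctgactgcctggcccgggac
Of 27305 RefSeq promoters searched on both strands, 15.4% held TTTGAA, 35.7% held CCAAT and 6.08% held both. Among the genes highest in the second library of KO#1 and sgControl and higher in KO#2 replicate 2 than in KO#2 replicate 3, as set out below, 25 of 41 promoters (61.0%) held TTTGAA and 29 (70.7%) held CCAAT. Among the other tested genes, 1 of 16 promoters (6.25%, that of KIF5B) held TTTGAA and 4 (25.0%) held CCAAT. The KIF20A promoter held CCAAT boxes and no TTTGAA, and the KIF7 promoter held neither within the window. The sets were split by second-library values that were known when the genes were chosen. The split nearly follows that of mitotic genes from transport kinesins, so the contrast is a description. By list, TTTGAA was held by 85.7% of spindle list, 64.3% of mitotic kinesin, 35.7% of centromere protein and 5.0% of transport kinesin promoters. CENPE, CENPI and KIF2C, all among the 41, held neither motif. These matches describe the letters only.

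The labelled line was checked first. ELOVL5, the targeted gene, had 805, 1345 and 1016 in KO#1, 434, 1805 and 910 in KO#2, and 1999, 2713 and 2063 in sgControl, so that every knockout library lay below every control library. PAX2 and PAX8, transcription factors of the renal lineage, and KRT8 and KRT18, keratins of simple epithelia, were present in all libraries, as was VIM, a filament of mesenchymal cells. CDH6, a kidney cadherin, was at 0 in all. Of 18 markers of blood, endothelial and fibroblast cells, ACTA2 and COL1A1 passed the filter on low values. VWF reached 25.1 and CD14 17, PECAM1 was not analysed here, and the other 13 had at most 1.56 in any library. Values are a signal that the authors made by quantile normalization of read counts, with the same total of 8625043.6 in each library, so raw depth is not in them. From runs of features with equal reads it could be read back that 10 reads corresponded to signals of 6.67 to 12.6 in 8 libraries and of 55.7 in KO#2 replicate 1. That library also correlated with its own group at 0.672 and 0.737 (Pearson r of log2 values over tested features), against 0.937 to 0.978 for the other pairs within groups, and 20 of the 68 tested genes had under 10 reads in it. Each fold change below is said to be with all libraries or without KO#2 replicate 1, and where that library moved a result by much both values are given.

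In all 3 groups the second library held far more transcript of the dividing-cell genes than the other libraries of its group. MKI67, which encodes the Ki-67 protein that coats mitotic chromosomes, had 1447, 11440 and 1790 in KO#1, 593, 3303 and 1107 in KO#2, and 3651, 15280 and 2558 in sgControl. Its second library was 7.07 times the mean of the other 2 libraries in KO#1, 3.89 times in KO#2 and 4.92 times in sgControl. TOP2A, the topoisomerase that untangles sister chromatids, had 988, 6987 and 1800 in KO#1, 278, 5729 and 1078 in KO#2, and 1475, 6059 and 1772 in sgControl. The second library was the highest of its group for both genes in each group, and the group ranges overlapped throughout.

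Across the 68 tested genes, 39 were highest in the second library of all 3 groups, against 11.2% of all tested features, and 2 were lowest there in all 3 groups (KIF12 and KIF17), against 13.1%. A further 8 genes, with 54.2% to 61.4% GC, were higher in KO#2 replicate 1, a library in which GC-rich genes were high. Setting KO#2 replicate 2 against replicate 3 alone, 47 of 68 were highest in the second library of KO#1 and sgControl and higher in KO#2 replicate 2, against 15.5% of all tested features. These 47 took in 16 of 16 spindle, checkpoint and proliferation genes and 13 of 13 tested mitotic kinesins. The others were 17 of 18 centromere proteins (all but CENPB) and 1 of 21 transport, ciliary and other kinesins (KIF2A). Because the high second library was known when the genes were chosen, these counts are a description.

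**Figure D1:**
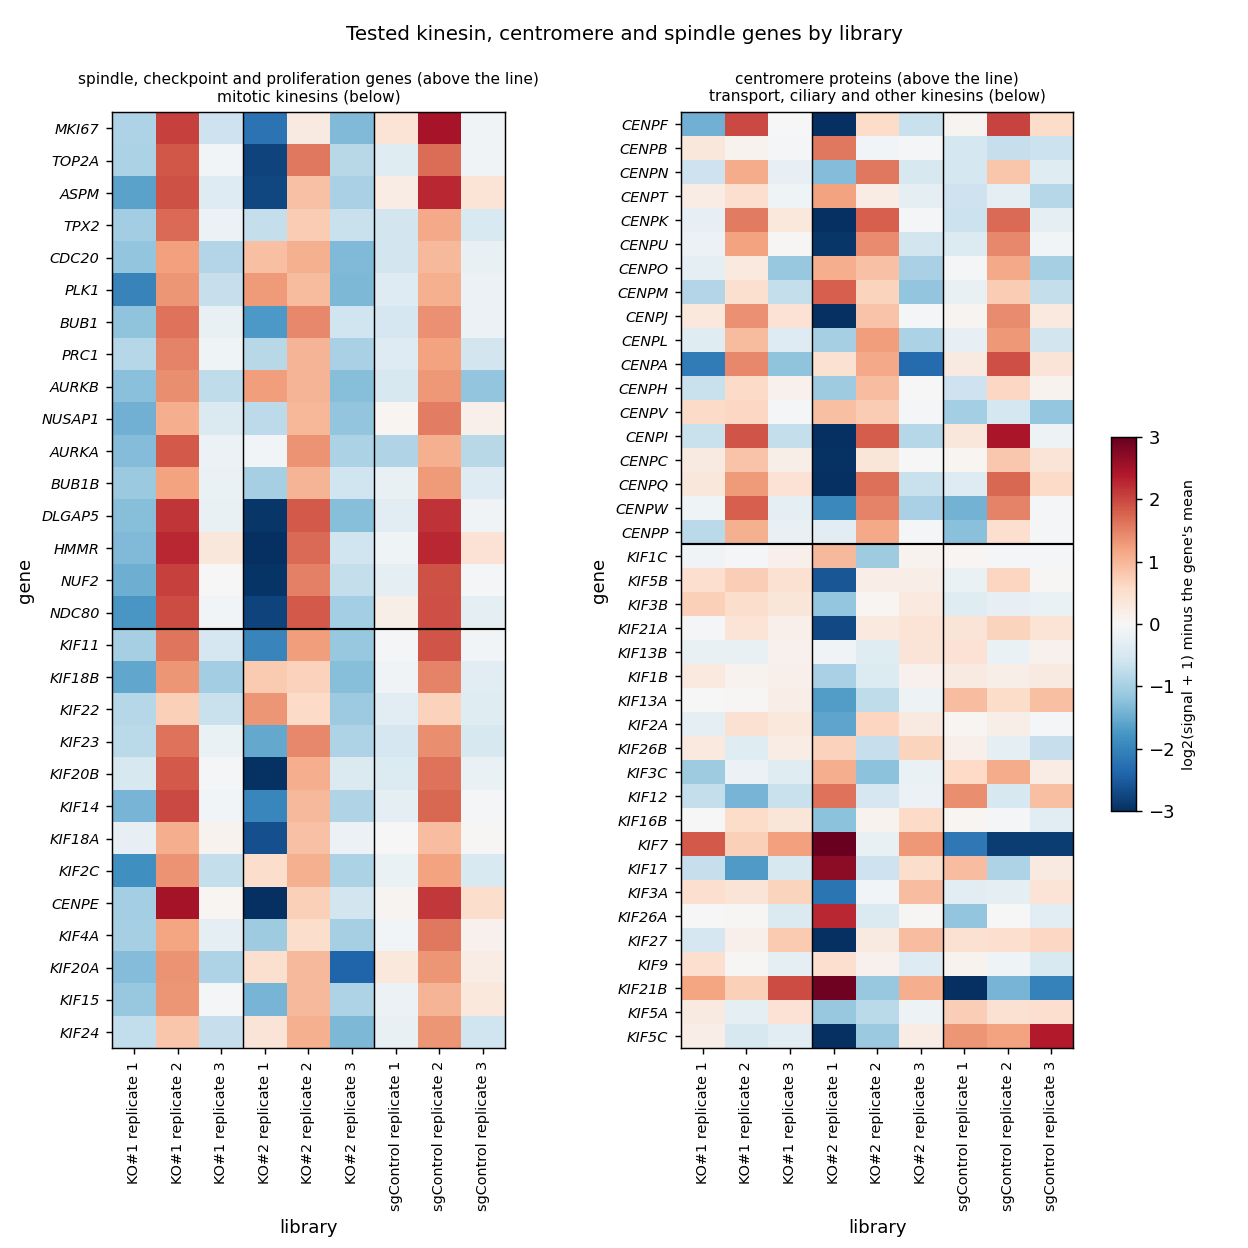
Each row is a tested gene and each column a library, and colour gives log2(signal + 1) minus the gene's mean over the 9 libraries, with values beyond -3 or 3 drawn in the end colours. The replicate 2 columns are red for nearly all spindle genes, mitotic kinesins and centromere proteins, while the 21 transport, ciliary and other kinesins show no such columns.

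The size of the rise in the second library was set out by role. For the spindle, checkpoint and proliferation genes the median difference, log2 of the second library minus the mean of the other 2, was 2.49 in KO#1, 2.00 in KO#2 and 1.92 in sgControl. For mitotic kinesins it was 2.12 in KO#1, 2.13 in KO#2 and 1.71 in sgControl, and for centromere proteins 1.28, 2.14 and 1.45 in the same order of groups. For transport kinesins it was -0.08 in KO#1, 0.01 in KO#2 and -0.03 in sgControl, beside -0.03, -0.01 and -0.01 for all tested features. With KO#2 replicate 1 left out, KO#2 replicate 2 minus replicate 3 had a median of 2.25 for the spindle list, 1.90 for mitotic kinesins, 1.83 for centromere proteins and -0.66 for transport kinesins, beside -0.02 for all tested features. The mitotic kinesins thus moved with the spindle genes, and the median of the transport kinesins was not raised in the second library of any group.

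Centromere and kinetochore genes differed in how far the second library was raised. CENPA, the histone H3 variant that marks the centromere, had 20.1, 245 and 38.1 in KO#1, 124, 197 and 17.4 in KO#2, and 109, 346 and 117 in sgControl. CENPF, a large outer kinetochore protein that peaks in G2 and M phase, had 665, 7222 and 1806 in KO#1, 217, 2658 and 1144 in KO#2, and 1927, 7428 and 2671 in sgControl. By contrast CENPC, which binds CENPA nucleosomes, had 117, 175 and 108 in KO#1, 11.4, 124 and 97.1 in KO#2, and 100, 170 and 126 in sgControl. The second library was 8.41 times the mean of the other 2 in KO#1 for CENPA and 5.85 times for CENPF, but 1.55 times for CENPC. CENPT, which links the inner to the outer kinetochore, and CENPV, which helps to organise pericentromeric chromatin, were 1.37 and 1.25 times as high there. CENPB, which binds a repeat of alpha satellite DNA, was at 0.97 times in KO#1. The ratios in sgControl were 3.06 for CENPA, 3.23 for CENPF, 1.5 for CENPC, 1.36 for CENPT, 1.49 for CENPV and 0.92 for CENPB. In KO#2 they were 2.795, 3.91, 2.29, 0.74, 1.185 and 0.47 in that order, with KO#2 replicate 1 in the mean. Against KO#2 replicate 3 alone they were 11.31, 2.32, 1.28, 1.405, 1.76 and 0.96. The order of the genes thus varied between groups, and in KO#2 it also changed with replicate 1.

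Among mitotic kinesins the second library of KO#1 was between 2.23 times (KIF18A) and 7.43 times (CENPE) the mean of the other 2, and in sgControl between 1.88 times (KIF18A) and 3.88 times (KIF11). KIF11, the motor that pushes spindle poles apart, had 249, 1514 and 354 in KO#1, 125, 1189 and 227 in KO#2, and 485, 1849 and 468 in sgControl. KIF23, a motor of the central spindle needed for cytokinesis, had 270, 1461 and 415 in KO#1, 163, 1292 and 249 in KO#2, and 334, 1248 and 341 in sgControl. KIF18A, which dampens chromosome movement at the metaphase plate, had 237, 599 and 301 in KO#1, 44.3, 514 and 248 in KO#2, and 284, 536 and 286 in sgControl. These 3 motors were highest in the second library of every group, whichever guide the cells carried. KIF4A and KIF4B are near-identical in sequence, so that the split between them rests on the authors' read assignment, which put KIF4B at 0.

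Per kilobase of the longest coding transcript, the highest sgControl levels of mean signal were those of CDC20 (582), MKI67 (565), TOP2A (539), TPX2 (483) and PLK1 (433). CENPF had 389, KIF22 253, KIF1C 367 and KIF5B 325. The high second library carries much of these means, and the order turned without it: over sgControl replicates 1 and 3, CDC20 had 382, KIF1C 374, PLK1 286, TOP2A and TPX2 282 each, KIF5B 267, MKI67 245, CENPB 234, CENPF 223 and KIF22 187. KIF1C moves vesicles in the secretory pathway, and KIF5B is the widely expressed heavy chain of conventional kinesin. The neuronal motors KIF5A and KIF5C were low over all 3 libraries, with 7.51 and 5.03, and CENPP (2.27), KIF7 (1.77) and KIF21B (0.378) were lower still.

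The same second libraries were high for cell division genes outside the rule. Of 36 other spindle, chromosome and cytokinesis genes, 28 were highest in the second library of all 3 groups, as were 21 of 25 other kinetochore and checkpoint genes and 18 of 25 replication genes of S phase. Of 19 kinesin light chains, adaptors and other motors, 3 were, and of 13 mitochondrially encoded messenger RNAs, 0 were. Over all tested features the share was 11.2%. Setting KO#2 replicate 2 against replicate 3 alone, these counts were 36 of 36, 23 of 25, 24 of 25, 4 of 19 and 0 of 13 in that order. The share of all tested features was then 15.5%. The summed signal of the 16 spindle, checkpoint and proliferation genes was 5428, 40870 and 9325 in KO#1, 7668, 24450 and 5978 in KO#2, and 11050, 41980 and 10790 in sgControl. The labels give no culture date, density or batch that would mark the second libraries, and what set them apart was not tested.

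**Figure D2:**
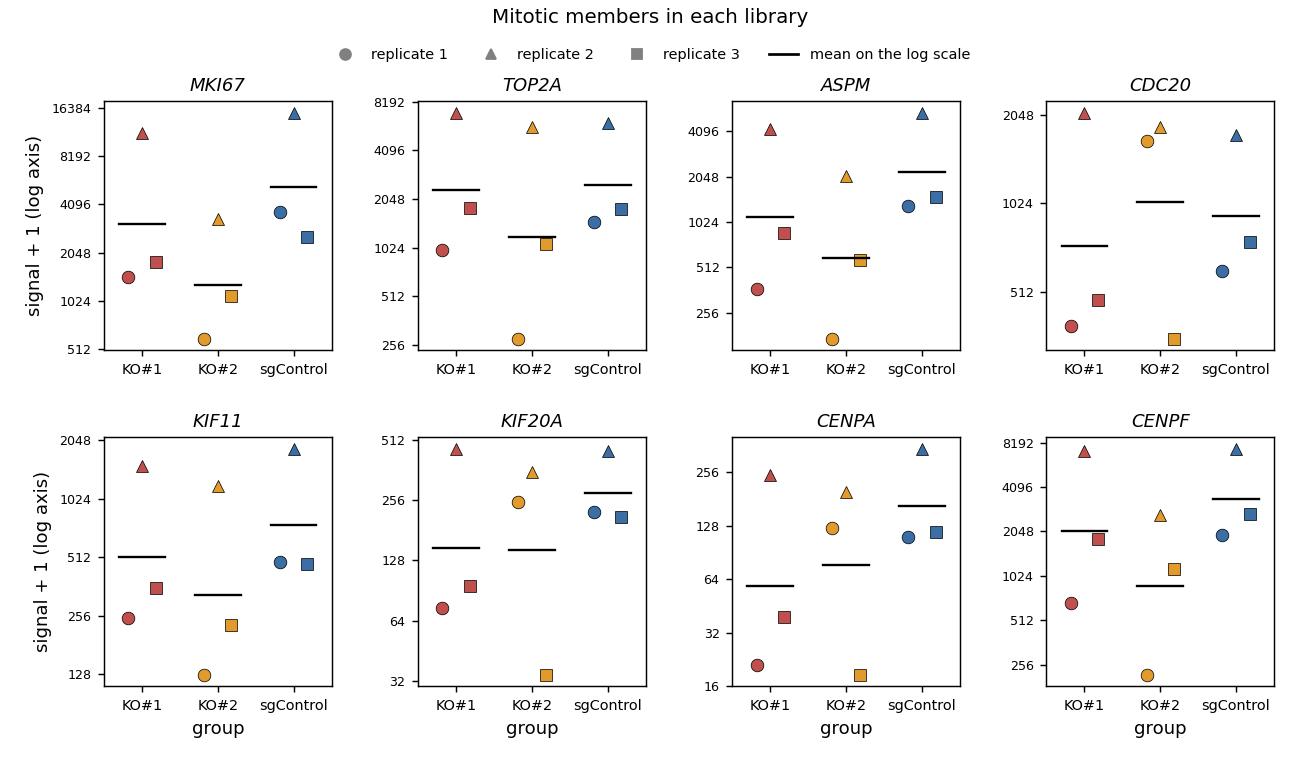
Signal plus 1 on a log axis is drawn for 8 mitotic genes in KO#1, KO#2 and sgControl, with a circle, a triangle and a square for replicates 1, 2 and 3 and a line at the group mean on the log scale. The triangle is the highest point of each group for all 8 genes, and the groups overlap.

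KO#2 replicate 1 departed from its group along GC content of the transcripts. Over the 68 tested genes, its log2 difference from the mean of KO#2 replicates 2 and 3 had a Pearson r of 0.905 with GC content of the longest coding transcript, and over 11971 tested features with a GC value r was 0.825. These are correlations across genes, which share the library and are not independent. The 32 tested genes under 45% GC were lower in that library by a median of -2.99 on the log2 scale, and the 15 at 55% or more were higher by 1.65. Over the tested features with a GC value these medians were -1.75 and 1.58. The mean of KO#2 replicates 2 and 3 includes the high second library, and the part of its rise in the differences of the 68 genes was not tested. HMMR, a spindle assembly factor with 36.7% GC, had 3.44 there, against 450 and 90.8 in the other KO#2 libraries, and CENPE, the motor that aligns chromosomes (35.3% GC), had 6.44, against 268 and 111. PLK1, a mitotic kinase with 57.3% GC, had 1860 there, against 1488 and 304. In KO#1 replicate 1 the same correlation over the 68 genes was 0.468 and in sgControl replicate 1 it was 0.543. Over the tested features with a GC value it was 0.183 in KO#1 replicate 1 and 0.342 in sgControl replicate 1.

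**Figure D3:**
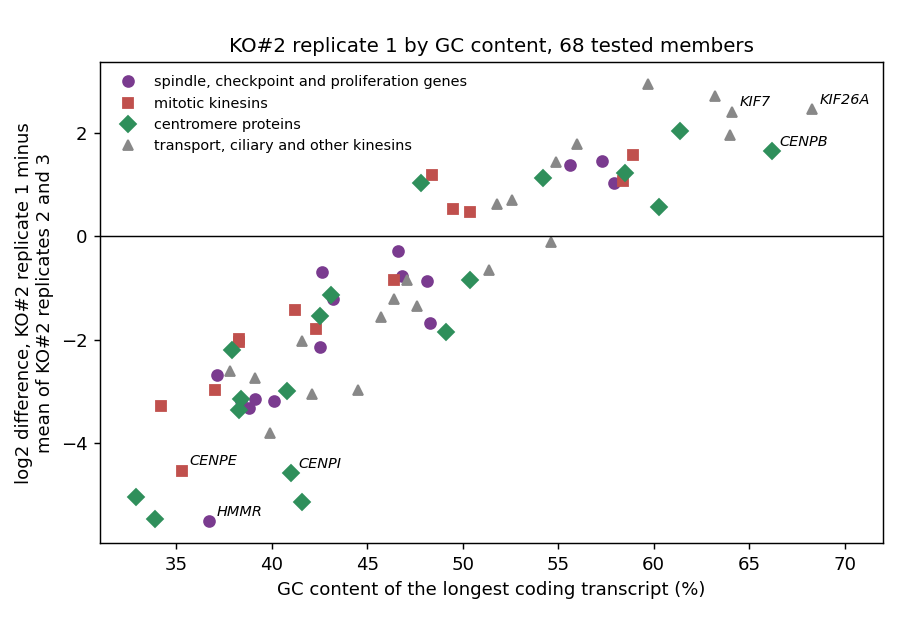
For each of the 68 tested genes, the horizontal axis gives GC content of the longest coding transcript in percent and the vertical axis the log2 difference of KO#2 replicate 1 from the mean of KO#2 replicates 2 and 3. Genes under 45% GC lie below 0 and those at 55% or more above 0 (r = 0.905).

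The first question was whether the groups with a guide against ELOVL5 differed from sgControl in these genes. With all libraries, 1 of the 68 passed limma's test in each comparison with sgControl, and it was KIF7, a kinesin of the primary cilium tip that regulates Hedgehog signalling. The share of all tested features called was 2.33% for KO#1, 2.04% for KO#2 and 3.1% for the mean of both, so that 1 of 68 was near the background; 1.36%, 1.17% and 1.65% were called higher. KIF7 had 192, 87.9 and 125 in KO#1, 416, 45.1 and 132 in KO#2, and 11.2, 6.44 and 6.44 in sgControl, with all 6 knockout libraries above all 3 controls. Its log2 fold change was 3.88 for KO#1 (SE 0.706, adjusted p = 0.0179) and 3.96 for KO#2 (SE 0.706, adjusted p = 0.0174), both by limma. For the mean of both groups it was 3.92 (SE 0.612, adjusted p = 0.00565). All 3 sgControl values rest on under 10 reads, which makes the size of the fold uncertain, and without KO#2 replicate 1 the KO#2 fold change was 3.15 (SE 0.504, adjusted p = 0.00553). Without the second library of all 3 groups KIF7 was called for the mean of both groups (4.33, SE 0.610, adjusted p = 0.0381) but not for KO#1 (adjusted p = 0.107) or KO#2 (adjusted p = 0.0604). The KO#1 call was also lost on leaving out any 1 sgControl or KO#1 library (adjusted p up to 0.105), and the KO#2 call on leaving out any 1 sgControl library or KO#2 replicate 3 (up to 0.092).

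No spindle gene, mitotic kinesin or centromere protein was called with all libraries. For the mean of both knockout groups against sgControl the median log2 fold change was -0.47 for spindle, checkpoint and proliferation genes (14 of 16 below 0), -0.53 for mitotic kinesins (13 of 13 below 0), -0.15 for centromere proteins (12 of 18 below 0) and -0.13 for transport kinesins (12 of 21 below 0), beside 0.001 for all tested features. Without KO#2 replicate 1 these medians were -0.25 (12 of 16 below 0), -0.35 (10 of 13), 0.02 (9 of 18) and -0.15 (11 of 21) in the same order of lists, beside 0.03 for all tested features, so that the size of the medians, and the sign for centromere proteins, changed with that library. With all libraries MKI67 had a log2 fold change of -0.76 for KO#1 (SE 0.914, adjusted p = 0.952) and -2.01 for KO#2 (SE 0.914, adjusted p = 0.371) by limma. On the scale of the signal the libraries of a group were widely spread: MKI67 averaged 4892 ± 5672 in KO#1, 1668 ± 1439 in KO#2 and 7164 ± 7053 in sgControl (SD, n = 3 each). KO#2 and KO#1 differed in 0 of the 68 genes by limma (2 at an unadjusted p under 0.05), and in 0.0% of all tested features (529, or 4.07%, at an unadjusted p under 0.05), and the median of the 68 was -0.41, but 0.03 without KO#2 replicate 1.

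Leaving out KO#2 replicate 1 narrowed the spread, and 8 of the 68 then passed limma's test for KO#1 (12.3% of all tested features were called), 3 for KO#2 (8.02%) and 8 for the mean of both (14.6%). By direction, 5 were higher and 3 lower for KO#1 (5.99% and 6.27% of all tested features), 1 higher and 2 lower for KO#2 (3.88% and 4.14%), and 5 higher and 3 lower for the mean (7.05% and 7.56%). These shares of the 68 were near or below the background. Transport kinesins made up 6 of the 8 for KO#1, all 3 for KO#2 and 6 of the 8 for the mean, and centromere proteins the remainder, CENPB and CENPV. No spindle gene or mitotic kinesin was among them.

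Among the genes that were higher without KO#2 replicate 1, KIF21B, a kinesin that alters microtubule growth in neurons and lymphocytes, had 43.6, 31 and 75.1 in KO#1, 148, 7.89 and 40.8 in KO#2, and 1, 6.44 and 3.78 in sgControl. All 6 knockout libraries lay above the controls, which again held under 10 reads each, as did KO#2 replicate 2. The log2 fold change was 3.53 for KO#1 (SE 0.671, adjusted p = 0.0086) and 2.22 for KO#2 (SE 0.75, adjusted p = 0.107). CENPV had 159, 163 and 101 in KO#1, 200, 179 and 102 in KO#2, and 51.3, 72.7 and 46.4 in sgControl, with no overlap. Its log2 fold change was 1.29 for KO#1 (SE 0.312, adjusted p = 0.026) and 1.26 for KO#2 (SE 0.349, adjusted p = 0.0562).

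CENPB had 1277, 1085 and 959 in KO#1, 3023, 942 and 982 in KO#2, and 693, 616 and 638 in sgControl, with every knockout library above every control. Without KO#2 replicate 1 it was 0.76 higher in KO#1 on the log2 scale (SE 0.17, adjusted p = 0.0185), and the KO#2 value was 0.57 (SE 0.19, adjusted p = 0.104). KIF3B, a subunit of the heterotrimeric kinesin-2 that carries cargo into cilia, had 1596, 1405 and 1249 in KO#1, 432, 1005 and 1198 in KO#2, and 755, 823 and 847 in sgControl. It was 0.80 higher in KO#1 (SE 0.17, adjusted p = 0.0148), and the KO#2 value was 0.44 (SE 0.19, adjusted p = 0.2), or -0.01 with all libraries. In KIF3B the KO#1 libraries stood apart from sgControl, while KO#2 replicate 1 lay below all controls.

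Genes that were lower without KO#2 replicate 1 included KIF13A, which carries endosomes to the cell periphery. It had 516, 540 and 602 in KO#1, 163, 307 and 468 in KO#2, and 996, 774 and 981 in sgControl, and no knockout library reached the lowest control. Its log2 fold change was -0.72 for KO#1 (SE 0.207, adjusted p = 0.0493) and -1.26 for KO#2 (SE 0.232, adjusted p = 0.0108). KIF5C, a neuronal heavy chain of conventional kinesin, had 11.3, 6.67 and 7.56 in KO#1, 0, 4 and 11.6 in KO#2, and 26.1, 23.8 and 54.8 in sgControl. It was lower in KO#1 (-1.84, SE 0.487, adjusted p = 0.0364) and in KO#2 (-2.08, SE 0.545, adjusted p = 0.0461), and 3 of its 6 knockout values rest on under 10 reads. KIF12, a kinesin of kidney and liver epithelia, had 119, 74.3 and 123 in KO#1, 608, 138 and 173 in KO#2, and 518, 140 and 369 in sgControl, and was called lower in KO#1 only (-1.53, SE 0.432, adjusted p = 0.0463). The KO#2 value without replicate 1 was -0.95 (SE 0.483, adjusted p = 0.277), or -0.30 with all libraries, and the direct test of KO#2 against KO#1 did not call KIF12 in that fit. KIF3C, another kinesin-2 subunit, had 130, 240 and 214 in KO#1, 579, 117 and 238 in KO#2, and 416, 593 and 318 in sgControl, and was called lower for the mean of both groups (-1.27, SE 0.314, adjusted p = 0.0237).

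**Figure D4:**
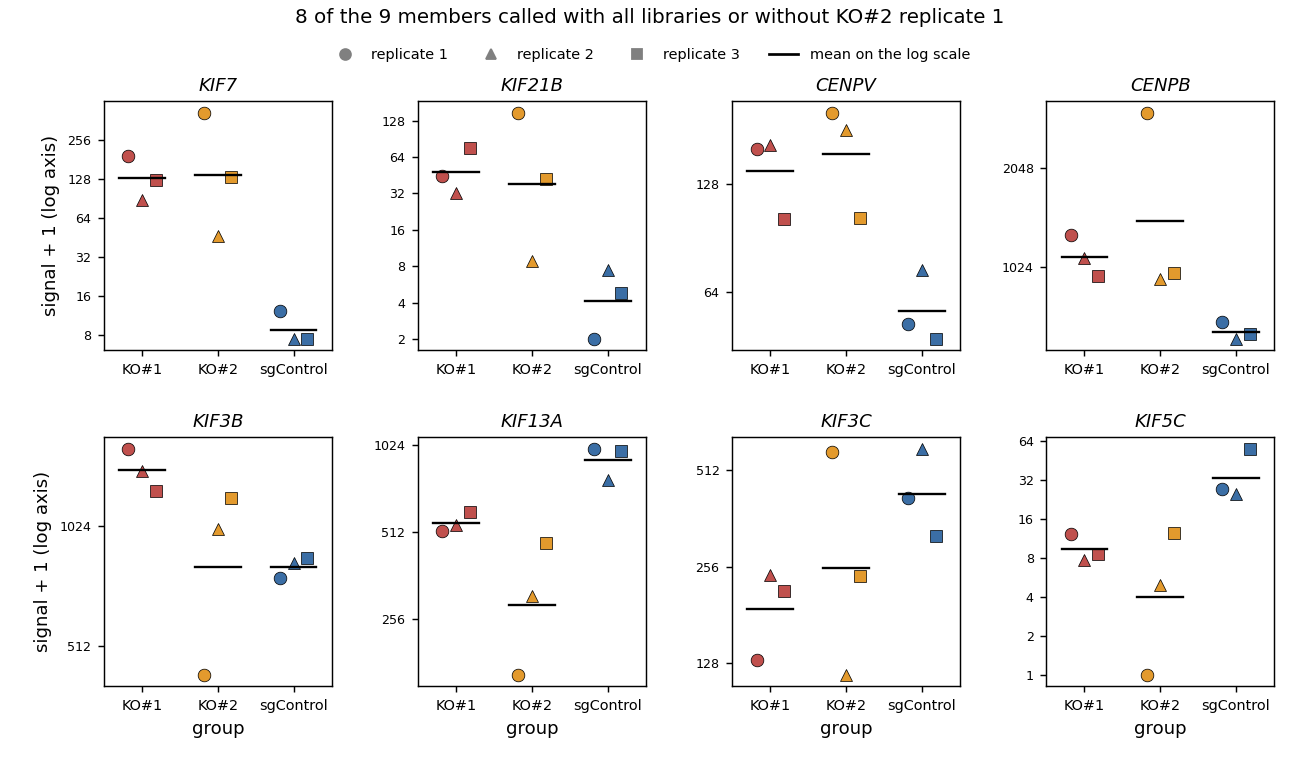
Signal plus 1 on a log axis is drawn for 8 of the 9 genes called with all libraries or without KO#2 replicate 1 (KIF12 is not shown), by group and library, with a line at the group mean on the log scale. KIF7, KIF21B, CENPV and CENPB are higher in all 6 knockout libraries and KIF13A and KIF5C lower. KO#2 replicate 1 is the highest or the lowest KO#2 library for each of the 8 genes. It lies far from the rest of KO#2 for KIF3B, KIF3C, CENPB, KIF7 and KIF21B.

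By rank alone, 5 of the 68 genes were higher in all 6 knockout libraries than in every sgControl library (CENPB, CENPT, CENPV, KIF21B and KIF7), against 6.61% of all tested features, and 3 were lower in all 6 (KIF13A, KIF5A and KIF5C), against 5.9%. CENPT had 229, 280 and 179 in KO#1, 456, 230 and 164 in KO#2, and 127, 160 and 108 in sgControl, a log2 fold change of 0.89 for the mean of both groups (SE 0.36, adjusted p = 0.284 by limma). KIF5A had 35.1, 23.8 and 39.4 in KO#1, 12.7, 16.1 and 26.1 in KO#2, and 49.3, 40.4 and 41.4 in sgControl, a log2 fold change of -0.85 (SE 0.387, adjusted p = 0.358 by limma). An exact permutation test of all 6 knockout libraries against the 3 controls (two-sided, 84 splits, smallest possible p 0.0119) gave p = 0.0119 for KIF7, KIF21B and CENPV, p = 0.0238 for KIF5C, and p = 0.0476 for CENPB and KIF13A. For MKI67 the exact test gave p = 0.214. These are raw values for single genes, singled out among 23.

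Because the second libraries dominate the spread of the mitotic genes, the comparison was also made without them. They were left out for the values of the same genes that were then tested. For mitotic genes, p-values and calls of every fit without them therefore understate the spread and are a description only. With KO#2 replicate 1 kept, 0 of 68 genes were called for KO#1 (0.262% of all tested features), 0 for KO#2 (0.323%) and 1, KIF7, for the mean (0.501%). With KO#2 replicate 1 also left out, 5 libraries remained, of which KO#2 had 1, assumed to vary like the other groups. Then 15 of 68 were called for KO#1 (17.0% of all tested features), 7 for KO#2 (7.68%) and 16 for the mean of both (17.1%), of which 5 were higher (8.4% of all tested features) and 11 lower (8.67%).

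Among the remaining 5 libraries, mitotic genes were mostly lower in knockout cells. For the mean of both groups against sgControl, 13 of 13 mitotic kinesins were below 0 (median log2 fold change -0.79). So were 15 of 16 spindle, checkpoint and proliferation genes (median -0.63) and 11 of 18 centromere proteins (median -0.04). The median of all tested features was 0.03. Transport kinesins had a median of 0.05, with 9 of 21 below 0. Without the second libraries but with KO#2 replicate 1 kept, the medians were -0.76 for mitotic kinesins and -0.75 for the spindle list, with no call in either. In the left-out second libraries, the median log2 signal of mitotic kinesins was 9.85 in KO#1 and 9.03 in KO#2, against 9.47 in sgControl. For the spindle list it was 10.48 in KO#1 and 9.995 in KO#2, against 10.28 in sgControl. The second KO#1 library was thus not lower than that of sgControl by either median.

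MKI67 in these libraries had 1447 and 1790 in KO#1, 1107 in KO#2 replicate 3, and 3651 and 2558 in sgControl. Its log2 fold change was -0.92 for KO#1 and -1.46 for KO#2. The second libraries were left out for the values of such genes, and KO#2 had 1 library. For this reason fold changes from these 5 libraries are given without p-values. With all 9 libraries MKI67 was at -0.76 for KO#1 and -2.01 for KO#2, and neither was called. KIF20A, a motor of the central spindle that brings the chromosomal passenger complex there, had 72.7 and 93.9 in KO#1, 33.1 in KO#2 replicate 3, and 224 and 211 in sgControl. Its log2 fold change was -1.39 for KO#1 and -2.68 for KO#2. Both guides gave values below both controls for each of these genes. Yet KIF20A had 251 in KO#2 replicate 1, above both of those controls, and 463 in KO#1 replicate 2, against 450 in the second sgControl library.

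CENPA in the same 5 libraries had log2 fold changes of -1.99 for KO#1 and -2.63 for KO#2. ASPM, which organises spindle poles, had 370 and 865 in KO#1, 575 in KO#2 replicate 3, and 1311 and 1506 in sgControl. Its log2 fold change was -1.31 for KO#1. KIF18B, a microtubule depolymerising partner of KIF2C, had -1.09 for KO#1. For the mean of both groups the log2 fold changes were -0.79 for CDC20, the activator of the anaphase-promoting complex, and -1.16 for NUSAP1, which bundles spindle microtubules. KIF11 had -0.87. The left-out KO#2 replicate 1 had values above both of these sgControl libraries for CDC20 (1665, against 602 and 756), KIF18B (939, against 510 and 434) and CENPA (124, against 109 and 117), and below them for KIF11, NUSAP1 and ASPM. With all 9 libraries the mean of both groups had log2 fold changes of -0.09 for CDC20, -0.53 for KIF18B and -1.29 for CENPA, none of them called. In the 5 libraries TOP2A had a log2 fold change of -0.43 and TPX2, which activates AURKA at the spindle, one of -0.13. By rank, 22 of 68 genes were lower in KO#1 replicates 1 and 3 and KO#2 replicate 3 than in both sgControl libraries, against 23.4% of all tested features, and 10 were higher, against 26.3%.

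**Figure D5:**
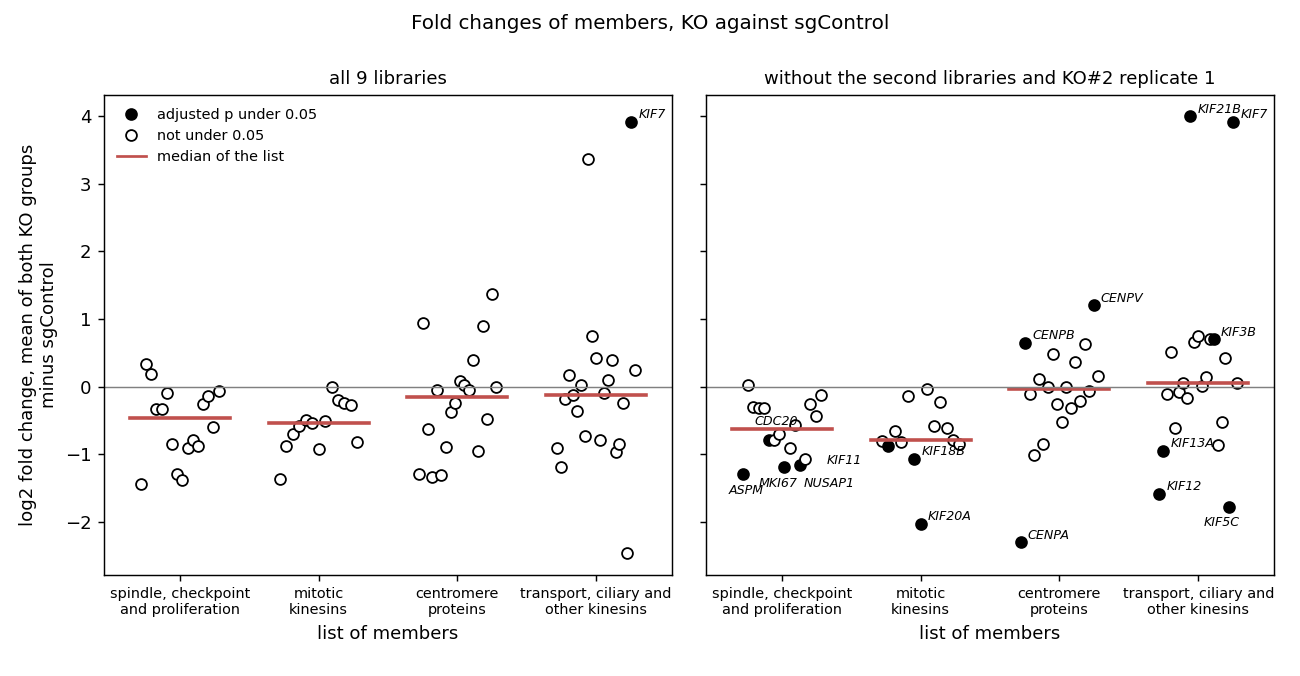
Each point is a tested gene, placed by its log2 fold change of the mean of both knockout groups minus sgControl, with filled points at an adjusted p under 0.05 by limma and a red line at the median of each list; the left panel has all 9 libraries and the right panel the 5 that remain without the second libraries and KO#2 replicate 1. Only KIF7 is filled on the left. All 13 mitotic kinesins lie below 0 on the right, where filled points of mitotic genes are a description only.

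Position in the genome was a last property that the choice of genes did not use. Chromosomes 15 and 20, however, were picked with earlier results of these data known, so their medians are a description. AURKA, CENPB, KIF16B, KIF3B and TPX2 lie on chromosome 20, where all 344 tested features had a median log2 fold change of 0.64 for the mean of both knockout groups with all libraries. The median of these 5 genes was 0.33, with 4 of 5 above 0, and without KO#2 replicate 1 it was 0.43, with 5 of 5 above 0. KIF7 lies on chromosome 15 with BUB1B, KIF23, NUSAP1 and PRC1, where the 414 tested features had a median of 0.34. There KIF7 was the only one of the 5 above 0 with all libraries, and without KO#2 replicate 1 3 of 5 were. The other 58 tested genes had a median of -0.49, beside -0.02 for the 11643 features on other chromosomes, and without KO#2 replicate 1 of -0.23, beside 0.01. CENPB and KIF3B, both higher in KO#1 without KO#2 replicate 1, thus lie on a chromosome whose features were higher as a whole, and the part of this in their values was not tested.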

How the data were processed

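How reads were aligned and counted is not given in the sources used here. Per the labels' protocols, total RNA was made into directional libraries and read as paired ends of 36 bases on a NextSeq500. The deposited values are a signal that the authors obtained from total read counts by quantile normalization, which the table is named for. The submitters' processing notes list the build mm10, a mouse build, although the names are human, so coordinates come only from RefSeq on GRCh38.p14. Values were taken as log2(value + 1), which understates changes of low genes, and tests covered the 12985 features whose mean over 9 libraries was 10 or more. limma 3.58.1 (R 4.3.3) fitted 1 model with 3 groups, empirical Bayes moderation and a variance trend, two-sided. P-values were Benjamini-Hochberg adjusted over all tested features, and a gene was called under 0.05. Python 3.11.15, pandas 2.3.3 and numpy 2.4.6 did the rest. The limma script and the reading of reads behind the values were tested on simulated data.

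Named genes were MKI67, genes called with all libraries, without KO#2 replicate 1 or without the second libraries, and in each list the 3 with the highest mean and the 3 with the largest fold change for the mean of both knockout groups. Genes named beyond that were picked after their values were seen. The genes and lists were chosen with earlier results of these data known. Alternatives changed the libraries, pseudocount, filter, weights, variance trend, scaling and samples in the fit. All sample columns were used (0 left), and identical values were found in 0 library pairs.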

Additional observations from a re-analysis of the deposited data

How the results depend on the processing

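Over leaving out each library in turn, the number of the 68 tested genes called ranged from 0 to 8 for KO#1, from 0 to 3 for KO#2 and from 1 to 8 for the mean of both groups, and was 0 throughout for KO#2 against KO#1. The 8 and the 3 came without KO#2 replicate 1; the cause of other shifts was not tested. Without the second library of all 3 groups 0, 0 and 1 were called in the same order of comparisons, and without these and KO#2 replicate 1 15, 7 and 16. With library weights (0.0547 for KO#2 replicate 1, and 0.508 to 2.52 for the others) 10, 4 and 10 were called. With only the groups compared in the fit 8 were called for KO#1 and 0 for KO#2. Pseudocounts of 0.5 and 8, a minimum mean of 50, no minimum, no variance trend and removed library medians left these counts within 1.5 times, the last by construction, since quantile normalization gives all libraries a median of 7.863. KIF7, leaving out 1 library at a time, had an adjusted p of 0.000624 to 0.105 for KO#1, 0.00322 to 0.092 for KO#2 and 0.000509 to 0.0476 for the mean, so the calls for a single guide were lost without any 1 sgControl library, and also without any KO#1 library for KO#1 and without KO#2 replicate 3 for KO#2. Without KO#2 replicate 2, KIF21B was called as well in each comparison with sgControl, and without KO#2 replicate 3 CENPV and KIF13A were called for the mean. Of the values of the 23 named genes under the alternatives, 1126 kept direction and side of the threshold, 77 passed it newly, 13 no longer passed it and 66 changed sign without a call. No paired analysis was possible because the labels give no replicate numbers. Depth limits KIF7 and KIF21B in sgControl and the AT-rich genes in KO#2 replicate 1, where few reads stand behind a value.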

Other observations

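The other cell division genes were also compared between the groups. As above, calls for mitotic genes in fits without the second libraries understate the spread and are a description only. Without the second libraries and KO#2 replicate 1, the 25 replication genes had a median log2 fold change of 0.13 for the mean of both groups against sgControl, with 14 above 0 and CHAF1A, a chromatin assembly factor subunit, called lower. Over all tested features 8.67% were called lower in that fit. In the same libraries 34 of 36 other spindle, chromosome and cytokinesis genes were below 0, with a median of -0.61. BIRC5, FOXM1, KIFC1, NEK2 and PTTG1 were called lower, where FOXM1 is a transcription factor of G2 and M phase genes and KIFC1 a minus-end directed kinesin. Of 25 other kinetochore and checkpoint genes 17 were below 0, with a median of -0.43, and SPDL1 and TRIP13, which act in kinetochore and checkpoint function, were called lower, which with 2 of 25 is a share near that of all features. With all 9 libraries 0 genes of these 3 lists were called by limma for the mean of both groups, and 0 had an unadjusted p under 0.05.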
